A study of Mus musculus with 5 samples.

Results

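The Cdk4 to Nab2 locus is a 750 kb stretch of mouse chromosome 10, chr10:126400001-127150000 in the mm9 build. It was chosen from peak lists of the transcription factor WT1: its limits, 2 wide M15 stretches and 1 strong region were selected on the peaks and signals of these same lists. Those features are therefore described here without a test. Of 622792 peaks in 4 lists, 169 touch the locus: 82 in M15 replicate 1, 33 in M15 replicate 2, 24 in KTSminus replicate 1 and 30 in KTSminus replicate 2. The locus holds Cdk4 near 126.5 Mb, Ddit3 near 126.73 Mb, Gli1 near 126.77 Mb, and Stat6 and Nab2 near 127.1 Mb. These positions are rounded to 10 kb, because no mm9 annotation was used, and Stat6 and Nab2 were given 1 position for both.

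The lists come from CUT&RUN, in which an antibody on chromatin brings in a nuclease that cuts out the DNA beside the bound protein. The anti-WT1 antibody ab89901 was used on M15 cells (2 libraries) and on a line derived from M15 by editing of the KTS isoforms of WT1 (2 libraries, KTSminus). M15 is a mouse mesonephric epithelial line carrying polyoma virus large T, and both lines share that origin. The labels do not give the isoform that the edited cells retain, whether the line is 1 clone, or whether replicates are separate cultures, so the spread between replicates may be technical. The fifth sample, M15 cells with an IgG antibody, was not analysed here. No expression was measured, so the cell type was not checked against markers.

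WT1 is a zinc-finger protein of the embryonic kidney and gonad that binds GC-rich sites resembling those of the EGR family. Its splice forms differ by the 3 residues lysine, threonine and serine (KTS), which lie between zinc fingers and weaken sequence-specific DNA binding when present. The genes of the locus serve different pathways. Cdk4 encodes the kinase that works with D-type cyclins in G1 of the cell cycle. Ddit3 encodes CHOP, a transcription factor of the endoplasmic reticulum stress response. Gli1 encodes a zinc-finger effector and target of Hedgehog signalling. Stat6 encodes the transcription factor downstream of interleukin 4 and interleukin 13. Nab2 encodes a corepressor that binds EGR proteins. In the GRCm38 annotation 26 protein-coding genes run from Cdk4 to Nab2, Cdk4 first and Nab2 last. Tspan31 follows Cdk4, Mars1 and Arhgap9 lie between Ddit3 and Gli1, and Lrp1 precedes Stat6.

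The promoters of the genes at the 2 ends of the locus are shown because the lists differ there: only M15 peaks were listed near Cdk4, and all 4 lists had peaks near Nab2. Both are RefSeq sequences of build GRCm38.p6, 250 bases before to 50 after the gene start, 5′ to 3′ along the gene. Capitals mark matches on either strand to GNGNGGGNG, a loose form of the GC-rich EGR and WT1 site, and overlapping matches run together. The Cdk4 promoter lies on the plus strand at chr10:127063285-127063584 and the Nab2 promoter on the minus strand at chr10:127666654-127666953, positions of GRCm38.p6 that do not compare with the mm9 positions of the peaks.
Cdk4 promoter: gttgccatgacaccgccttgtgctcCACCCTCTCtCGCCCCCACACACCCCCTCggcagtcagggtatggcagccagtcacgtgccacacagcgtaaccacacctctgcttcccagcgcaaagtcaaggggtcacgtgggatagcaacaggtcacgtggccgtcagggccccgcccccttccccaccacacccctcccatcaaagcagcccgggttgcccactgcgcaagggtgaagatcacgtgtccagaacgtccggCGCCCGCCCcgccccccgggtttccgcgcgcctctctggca
Nab2 promoter: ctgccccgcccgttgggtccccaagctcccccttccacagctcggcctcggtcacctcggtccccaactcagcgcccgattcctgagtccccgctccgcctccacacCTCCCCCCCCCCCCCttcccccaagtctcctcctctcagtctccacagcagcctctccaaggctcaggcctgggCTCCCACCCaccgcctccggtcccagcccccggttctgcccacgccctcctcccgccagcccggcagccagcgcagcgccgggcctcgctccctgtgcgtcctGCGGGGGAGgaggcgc

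RefSeq promoters were matched for 4 of the 5 genes (Cdk4, Ddit3, Stat6 and Nab2). The loose motif occurred 5 times in the Cdk4 promoter and 8 times in that of Nab2, where 5 of the matches are windows on 1 run of cytosines. It occurred 2 times in the Ddit3 promoter, both in a run of cytosines, and not in that of Stat6. Of 32851 promoters in the table, 39.6% hold the loose motif, so its presence does not set these genes apart. The exact 9-base forms GCGGGGGCG, GCGTGGGCG and GCGTGGGAG occurred in none of the 4 promoters, and in 2.91%, 0.612% and 0.472% of all promoters. The GC content was 67.0% for Cdk4, 60.7% for Ddit3, 57.3% for Stat6 and 74.0% for Nab2, against a median of 52.7% over the table.

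Peaks covered more of the locus in M15 than in KTSminus. The covered share was 55.0% in M15 replicate 1 and 42.9% in M15 replicate 2, and 18.5% and 26.4% in KTSminus replicates 1 and 2. The means were 49.0% ± 8.58 (SD, n = 2) and 22.5% ± 5.53 (SD, n = 2), and the lines did not overlap. Wide M15 stretches without KTSminus peaks helped to choose the locus, so this contrast describes that choice and is no independent result. No difference between the lines was tested, since the smallest two-sided p that an exact permutation of 2 against 2 libraries allows is 0.333. Elsewhere on chromosome 10, up to the last peak, the order was the opposite: 0.49% and 2.85% were covered in M15, and 13.8% and 7.74% in KTSminus. The locus thus stood above the rest of its chromosome in every list, by the widest margin in M15 replicate 1 and the narrowest in KTSminus replicate 1.

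**Figure D1:**
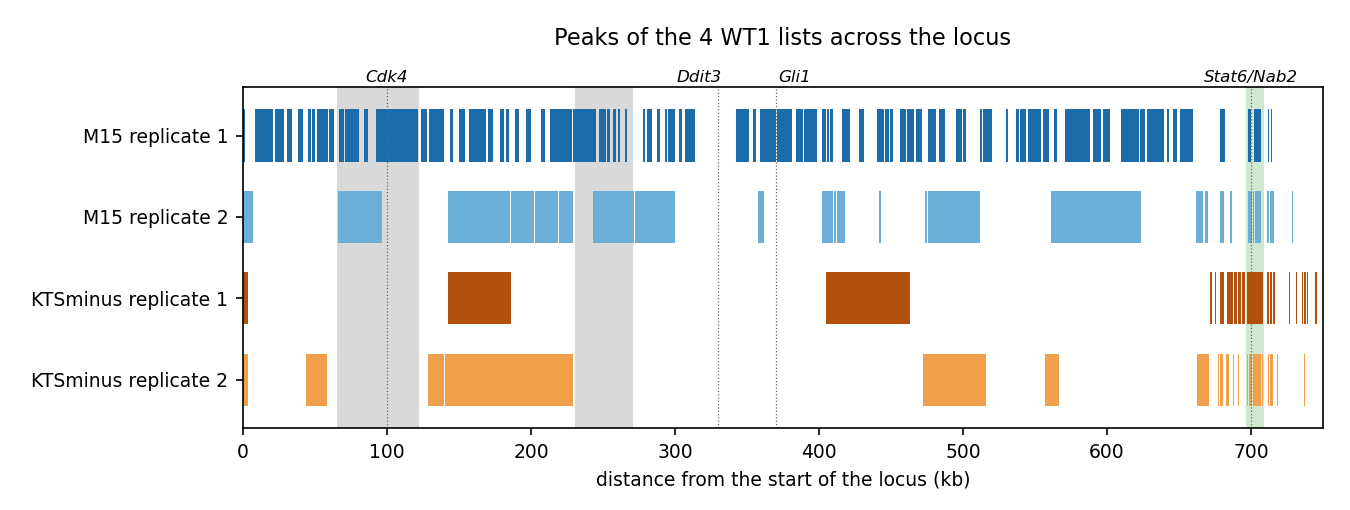
Peaks of the 4 lists as bars along the locus (x axis: distance from its start in kb). Grey bands mark the 2 wide M15 stretches, the green band the region near Stat6 and Nab2 found in all 4 lists, and dotted lines the rounded gene positions. No KTSminus peak lies within 25 kb of Cdk4, Ddit3 or Gli1.

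Each list had 1 peak that crossed the start of the locus. The one in KTSminus replicate 1 was 212135 bp wide, with only 3.44 kb inside. It had the highest total signal of that list. The last peak inside and the first one past the end had max signals, in that order, of 59 and 31 in M15 replicate 1, 6 and 8 in M15 replicate 2, 9 and 10 in KTSminus replicate 1, and 22 and 20 in KTSminus replicate 2. In the 500 kb before the locus, peaks covered 33.8% and 77.2% in M15 replicates 1 and 2, and 97.4% and 76.6% in KTSminus replicates 1 and 2. In the 500 kb after it they covered 1.53%, 3.65%, 39.9% and 11.6% in the same order. The flank before the locus was more densely covered than the flank after it in all 4 lists. It was also more densely covered than the locus itself in every list but M15 replicate 1. In KTSminus replicate 1 both flanks were covered more densely than the locus.

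Peak shape changed between Gli1 and Stat6. The distal part was taken to begin after the last KTSminus replicate 1 gap of at least 100 kb, at 127071800, a limit set after the peaks had been seen. Proximal to it M15 replicate 1 had 77 peaks with a median width of 3670 bp, M15 replicate 2 had 25 of 5331 bp, KTSminus replicate 1 had 3 of 58558 bp and KTSminus replicate 2 had 14 of 10477 bp. Distal to it the same lists had 5 peaks of 1998 bp, 8 of 1856.5 bp, 21 of 1093 bp and 16 of 751 bp. Every list had narrower peaks in the distal part. The KTSminus lists had more peaks there than the M15 lists, as they also had on chromosome 10 as a whole. The covered share went from 59.6% proximally to 15.9% distally in M15 replicate 1, from 45.4% to 21.5% in M15 replicate 2 and from 26.8% to 22.6% in KTSminus replicate 2. In KTSminus replicate 1 it went the other way, from 15.7% to 42.9%. The median of mean height, which is total signal divided by width, went from 26.1 proximally to 5.93 distally in KTSminus replicate 1 and from 20.0 to 11.2 in KTSminus replicate 2. In M15 it went from 5.95 to 16 in replicate 1 and from 6.69 to 5.83 in replicate 2, so the M15 replicates did not share a direction. Signals have no common scale between lists and are compared only inside one.

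The proximal part held the widest peaks of the M15 lists. Of the 16 peaks of at least 10 kb in the whole M15 replicate 1 list, 12 lay in the locus. In M15 replicate 2 it was 7 of 33, in KTSminus replicate 1 it was 3 of 752 and in KTSminus replicate 2 it was 7 of 105. Such peaks made up 14.6%, 21.2%, 12.5% and 23.3% of the locus peaks in M15 replicates 1 and 2 and KTSminus replicates 1 and 2, in that order, against 0.248%, 0.0542%, 0.242% and 0.0430% of the whole lists. Wide peaks were thus a larger share in the locus than in the list as a whole in all 4 lists. On chromosome 10 outside the locus the shares were 0.717%, 0.646%, 2.39% and 0.473% in the same order. Wide peaks were not particular to the locus. In the 500 kb before it the median widths were 3095.5, 2978, 10640 and 3138 bp, against 3421.5, 4463, 1506 and 942 bp in the locus. At a width of at least 20 kb the locus held 1 of 2, 6 of 8, 3 of 181 and 3 of 16 in the same order. The widest peak of each M15 list lay in the locus, 29204 bp in replicate 1 beside Cdk4 and 62627 bp in replicate 2 between Gli1 and Stat6. No distal peak of any list was that wide.

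Ranks of the locus peaks inside their own lists differed between the 2 signal columns. By construction 5.00% of each list is among its highest 5% in max signal (column 5), and 5.00% in total signal (column 4). For max signal the locus held 11 of 82 such peaks in M15 replicate 1, 23 of 33 in M15 replicate 2, 8 of 24 in KTSminus replicate 1 and 16 of 30 in KTSminus replicate 2. For total signal the counts were 18, 26, 7 and 15. High signal helped to choose the locus, so these counts describe it and carry no test. The median M15 replicate 1 peak of the locus stood 92.9% of the way down its list by max signal but 27.2% by total signal. Its locus peaks were low and wide for that list, with a median max signal of 16 against 35 and a median width of 3421.5 bp against 1673 bp. The medians were 3.06% and 0.616% in M15 replicate 2, 22.9% and 21.7% in KTSminus replicate 1, and 3.64% and 5.7% in KTSminus replicate 2.

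A few peaks of M15 replicate 1 rose far above the rest of the locus. Its 2 highest peaks genome-wide lay here: 126408438-126420909, proximal to Cdk4, with a max signal of 434, and 126771026-126781256 at the Gli1 position, with 415. The peaks ranked 6, 7 and 8 were also in the locus, at 127027894-127039281 (242), 127050384-127059740 (226) and 127101814-127107147 (223). Only the last of these 5, the one beside Stat6 and Nab2, overlapped a peak of any other list. The nearest peaks to the highest stretch at 126415791 were 8.97 kb away in M15 replicate 2 and 12.4 kb away in both KTSminus lists. From the Gli1 stretch at 126776252 the distances were 14.1 kb, 28.5 kb and 96.0 kb in M15 replicate 2 and KTSminus replicates 1 and 2. The highest M15 replicate 1 signals of the locus were thus not found in the second M15 list either. The same held elsewhere, since none of the 7 highest peaks of that list overlapped an M15 replicate 2 peak, and 3 of those 7 lie on other chromosomes.

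Of the 5 highest M15 replicate 1 peaks of the locus, only the one beside Stat6 and Nab2 was among the 5 highest of the other lists. In M15 replicate 2 the 5 highest were this dominant peak near Nab2 (max signal 90), 126547425-126582562 (49), 127111067-127112646 (42), the Cdk4 peak described below (36) and 126619226-126629081 (33). In KTSminus replicate 1 the order was the peak across the start of the locus (124, at a base outside it), the dominant peak (101), 126542327-126585835 (84), 126804727-126863284 between Gli1 and Stat6 (72) and 127110823-127112544 (46). In KTSminus replicate 2 it was 126547432-126585341 (173), the dominant peak (167), 127111685-127112538 (120), 126605731-126629084 (102) and the peak across the start, 126395468-126403427 (79). That last maximum also lies at a base outside the locus. These 3 lists shared the dominant peak, the one after it and a wide peak between Cdk4 and Ddit3 among their 5 highest. By total signal the wide peak ranked 2 in M15 replicate 2, 11 in KTSminus replicate 1 and 2 in KTSminus replicate 2.

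**Figure D2:**
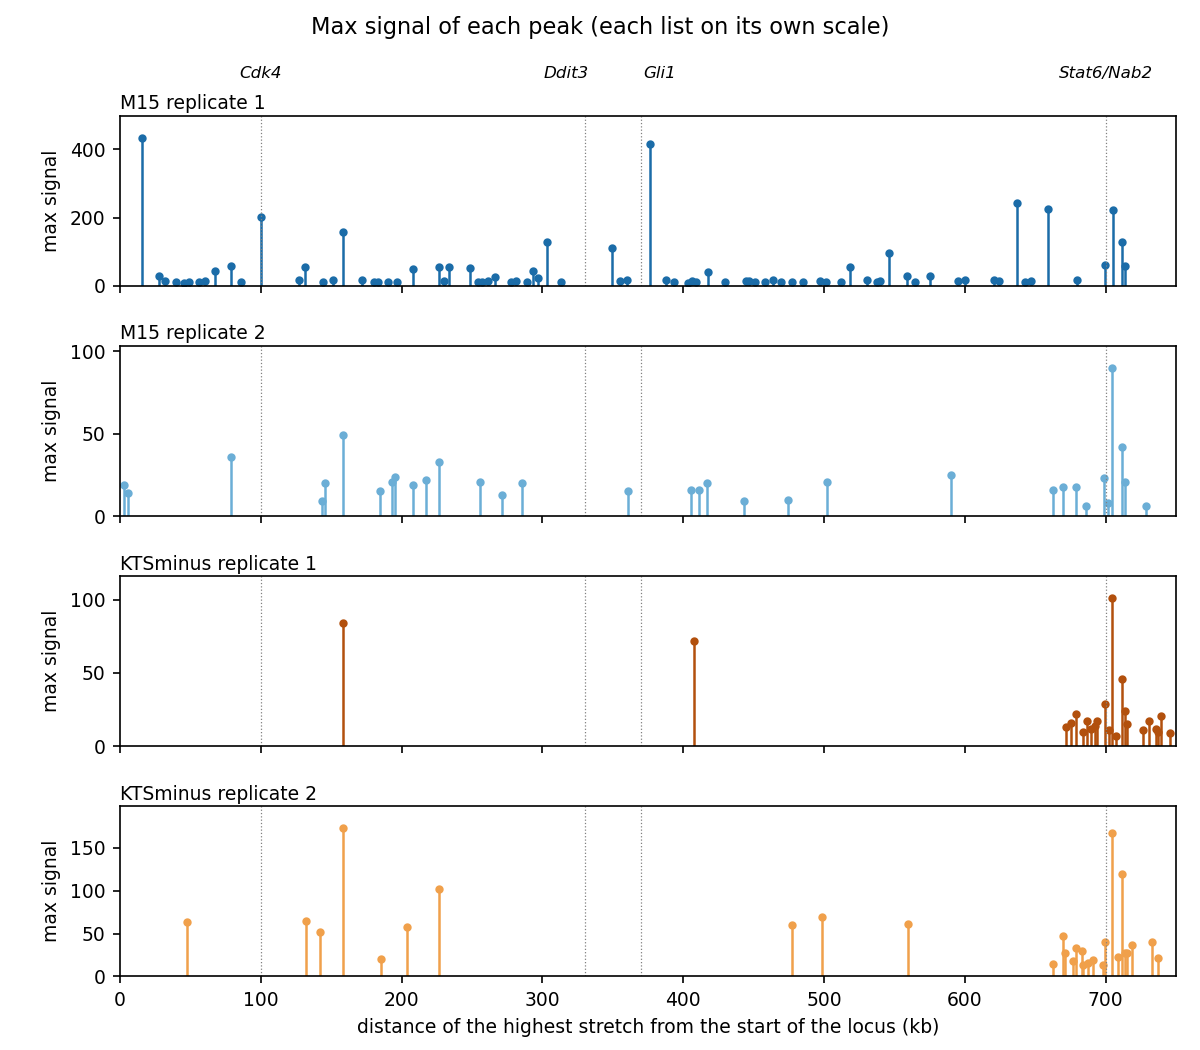
Max signal of each locus peak (y axis, the authors' coverage units, each list on its own linear scale) at the position of its highest stretch (x axis: kb from the start of the locus), 1 panel per list. Peaks with their highest stretch before the start of the locus are left out. M15 replicate 1 reaches 434 and 415 at places where the other lists have no peak, and all 4 lists have a high peak beside Stat6 and Nab2.

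Near Cdk4 only M15 peaks were listed. Within 25 kb of its rounded position M15 replicate 1 had 4 peaks covering 79.3% and M15 replicate 2 had 1 peak covering 43.1%. Neither KTSminus list had a peak there, and the nearest were 42.3 kb and 28.7 kb from the position in replicates 1 and 2. The highest M15 replicate 1 peak near Cdk4 spanned 126492110-126521313, with a max signal of 203 at base 126500419. Its total signal of 449189 was the highest of that list. The M15 replicate 2 peak spanned 126465971-126496527, with a max signal of 36 at 126479103-126479215. It ended before the base where replicate 1 was highest.

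These peaks form the first wide stretch, 126465971-126521313, which is 55343 bp long. The M15 replicates covered 81.9% and 55.2% of it, and both at once covered 37.1%. It is held together by an overlap between the last replicate 1 peak and the replicate 2 peak. The point on which the replicates coincided was the lower one: replicate 1 had its second peak there, with a max signal of 58 at 126479095-126479097, directly before the replicate 2 maximum. The stretch lay in a KTSminus replicate 1 gap of 138.9 kb, with 62535 bp to the peak before it and 21013 bp to the peak after it. In KTSminus replicate 2 the gap was 70.06 kb and those distances were 7322 bp and 7392 bp.

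The second wide stretch, 126631296-126669964, lay between Cdk4 and Ddit3 and was 38669 bp long. M15 replicate 1 had 6 peaks in it, the highest with a max signal of 56 at 126633735-126633749, and M15 replicate 2 had 1 peak, with a max signal of 21. The replicates covered 66.5% and 68.9% of it, and both at once 35.4%. The replicate 1 maximum lay before the start of the replicate 2 peak, so that here too the highest points did not coincide. In KTSminus replicate 1 the gap around the stretch was 218.9 kb, the second longest of 8692 on the chromosome. In KTSminus replicate 2 it was 243.2 kb, the fourth longest of 9119. One KTSminus replicate 2 peak ended 2211 bp before the stretch, but the next began 202283 bp after it.

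The locus held 2 more M15 regions of this kind. Of its 14 merged regions with a peak in both M15 lists, 4 had no KTSminus peak, against 1.23% of such regions over the genome, and 6 had a peak in both KTSminus lists, against 93.7%. Regions of both kinds helped to choose the locus, so neither share is an independent result. Counted among both the 14 and the 6 is 126144607-126403435, a merged region of 258829 bp that lies mostly before the locus. The further regions were 126672310-126700209, where max signal reached 44 in M15 replicate 1 and 20 in replicate 2, and 126757683-126770176, next to Gli1, where it reached 18 and 15. All 4 lay in the proximal part, and the 4 distal regions shared by both M15 lists all had peaks of both KTSminus lists. Asking for a 50% reciprocal overlap left 2 such regions in place of 4. With a library left out, the region needs fewer M15 peaks or has fewer KTSminus lists to miss, and the count was 7 without M15 replicate 1, 45 without M15 replicate 2, 7 without KTSminus replicate 1 and 10 without KTSminus replicate 2.

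Gaps of at least 20 kb lay in M15 replicate 2 as well as in the KTSminus lists, but they were less rare for that list. In KTSminus replicate 1, 0.0322% to 0.123% of all gaps of the list were as long as those inside the locus. In KTSminus replicate 2 it was 0.0299% to 3.94%, and in M15 replicate 2 it was 15.9% to 30.8%. Gaps of at least 20 kb in KTSminus replicate 1 held the highest stretch of 62 of the 82 M15 replicate 1 peaks, in 3 gaps of 566.3 kb together. In KTSminus replicate 2 they held 55, in 5 gaps of 489.9 kb. In M15 replicate 2 they held 37, in 8 gaps of 344.2 kb, the ones at 126415791, Cdk4 and Gli1 among them. These are 75.6%, 67.1% and 45.1% of the 82 peaks, close to the shares of the 750 kb locus that the gaps took up. M15 replicate 1 peaks were thus about as dense inside the gaps as in the rest of the locus. Of the 45 M15 replicate 1 peaks of the locus that overlapped no KTSminus peak, 23 overlapped no M15 replicate 2 peak either. Peaks in no other list made up 1.46% of the whole M15 replicate 1 list. Its share without any KTSminus peak was not counted, but 93.6% and 93.9% of it overlapped KTSminus replicates 1 and 2. The files hold no coverage outside peaks, DNA copy number was not measured, and the IgG library was not analysed here. The part of any of these in the missing peaks was not tested, and a missing peak does not show a lack of WT1.

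**Figure D3:**
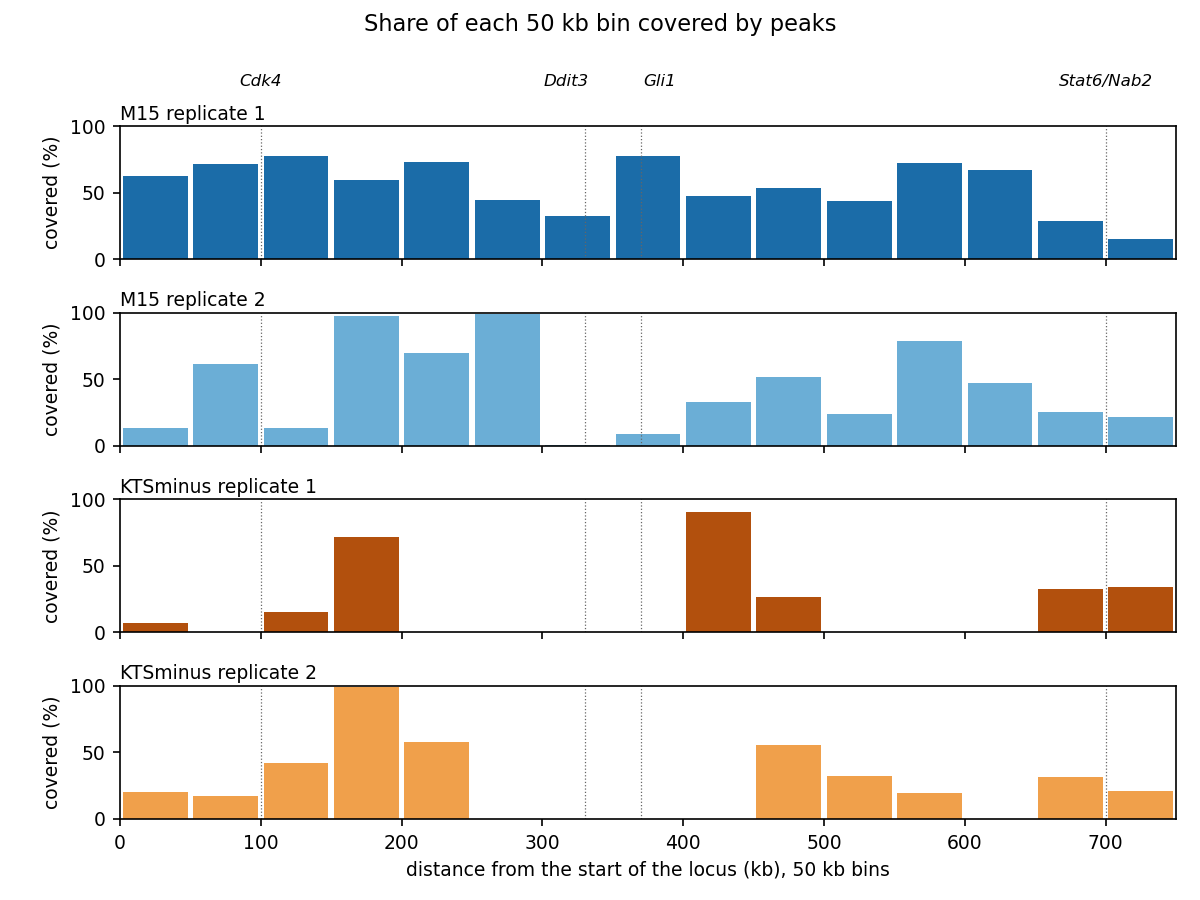
Share of each 50 kb bin covered by peaks (y axis, percent, from 0) along the locus (x axis: kb from its start), 1 panel per list. M15 replicate 1 covers between 15% and 77.4% of every bin, and KTSminus replicates 1 and 2 have no peak in 8 and 5 of the 15 bins.

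Only M15 replicate 1 had peaks near Ddit3, 4 within 25 kb of the rounded position, covering 32.5%, and none at the position itself, the nearest being 12.4 kb away. The highest spanned 126702779-126705061, with a max signal of 129 at 126703332-126703352, just outside the 25 kb. The highest maximum inside them was 110, at 126749391-126749405. The other 3 lists had no peak within 25 kb. Their nearest peaks were 27.7 kb away in M15 replicate 2, 74.7 kb in KTSminus replicate 1 and 101 kb in KTSminus replicate 2. The Ddit3 position lies in a gap of 28.67 kb in M15 replicate 1 itself, from 126713724 to 126742396, which makes it the only one of the named positions without a peak within 10 kb in any list.

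Gli1 lies close to Ddit3, and their 25 kb flanks overlap. Within 25 kb of Gli1, M15 replicate 1 had 6 peaks covering 80%, the highest with the max signal of 415 given above. M15 replicate 2 had 1 peak covering 8.93%, at 126757683-126762145, with a max signal of 15 and a rank of 5.58% from the top of its list. Neither KTSminus list had a peak within 25 kb, the nearest being 34.7 kb and 102 kb from the position. In covered share the M15 replicates lay further apart near Gli1 than near Cdk4 or near Stat6 and Nab2.

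Stat6 and Nab2 were the genes with peaks in all 4 lists. Within 25 kb of their position the lists held 5 and 7 peaks in M15 and 14 and 14 in KTSminus. These covered 24.8% and 31.6% in M15 replicates 1 and 2, and 55.5% and 33.8% in KTSminus replicates 1 and 2. Both KTSminus lists thus had more peaks here than both M15 lists, the reverse of the order near Cdk4 and Gli1. More KTSminus peaks is the usual order of these lists. On chromosome 10 they held 361 and 2508 peaks in M15 replicates 1 and 2, and 8693 and 9120 in KTSminus replicates 1 and 2. Peaks near Stat6 and Nab2 were not divided between the 2 genes, which were given 1 rounded position. In GRCm38.p6 their promoters lie apart, at 127642736-127643035 for Stat6 and 127666654-127666953 for Nab2. The shared position can therefore not be exact to 10 kb for both genes, and the 25 kb flanks may be off centre.

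The region shared by all lists, 127097162-127108660, is 11499 bp long and has 1 dominant peak in each. In M15 replicate 1 that peak spanned 127101814-127107147, with a max signal of 223, rank 8 of 6440 (0.124% from the top). In M15 replicate 2 it spanned 127102547-127107026, with 90, rank 6 of 60925 (0.00985%). In KTSminus replicate 1 it spanned 127102797-127106785, with 101, rank 40 of 310999 (0.0129%). In KTSminus replicate 2 it spanned 127101537-127107268, with 167, rank 25 of 244428 (0.0102%). It held 77.4% to 88.8% of the total signal of the peaks in the region in every list. By total signal it ranked 7, 12, 251 and 41 in the same order. Its rank was thus lower by total signal than by max signal in 3 lists, most of all in KTSminus replicate 1, and 1 place higher in M15 replicate 1.

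The position of the highest stretch in this region was nearly the same in 3 lists. It was base 127104909 in M15 replicate 1, bases 127104889-127104909 in M15 replicate 2 and base 127104880 in KTSminus replicate 2. In KTSminus replicate 1 it was 127104677-127104694, 186 bp from that of KTSminus replicate 2. A lower peak before the dominant one differed in position between the lines. It is the first peak of the region in both M15 lists and in KTSminus replicate 1, and the second in KTSminus replicate 2, whose first peak, 127097433-127098118, had a max signal of 14. The highest stretch of this lower peak lay at 127099296-127099297 and 127099196-127099204 in M15 replicates 1 and 2 (max signal 62 and 23), and at 127099813-127099825 and 127099784-127099786 in KTSminus replicates 1 and 2 (29 and 40). Replicates lay 92 bp apart in M15 and 27 bp apart in KTSminus, while the lines lay 487 to 609 bp apart. With 2 libraries per line, and the site singled out after its values were seen, this difference was not tested.

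**Figure D4:**
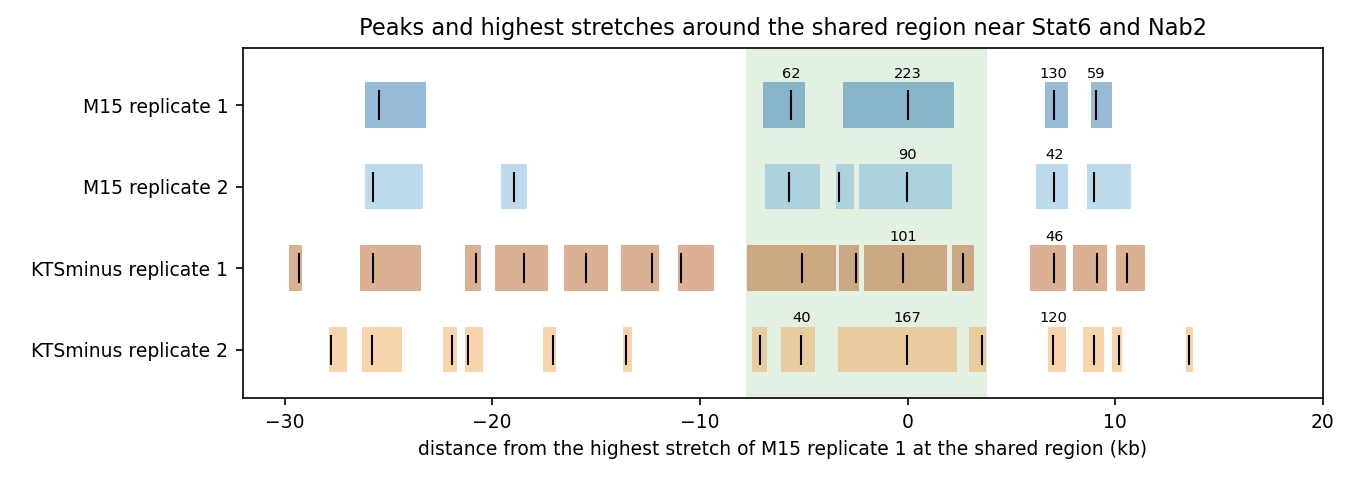
Peaks (bars) and their highest stretches (black ticks) around the shared region, 1 row per list, with max signals of 40 or more printed above (x axis: kb from the highest stretch of M15 replicate 1, base 127104909). The green band is the shared region. The ticks of all 4 rows lie within a span of 233 bp at the dominant peak, and within 79 and 149 bp at the 2 peaks after it.

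Highest stretches were joined into 1 site where each lay within 200 bp of the next. All 4 lists were found at 4 of 135 such sites in the locus, 1 proximal and 3 distal. Such sites were not counted over the genome, so whether 4 of 135 is many or few is not known. At the dominant peak, described above, the joined stretches span 233 bp, and those of M15 replicate 1 and KTSminus replicate 1 lie 215 bp apart. Of the distal ones, 1 is the dominant peak and 2 lie just after the shared region. At 127111914-127111992 the M15 lists reached 130 and 42 and the KTSminus lists 46 and 120 in max signal, and the 4 stretches spanned 79 bp. At 127113871-127114019 it was 59, 21, 24 and 28, and the stretches spanned 149 bp. The proximal site, 126558261-126558326 between Cdk4 and Ddit3, had 157 and 49 in M15 and 84 and 173 in KTSminus. Its 4 stretches spanned 66 bp, although the peaks around them were 11549, 35138, 43509 and 37910 bp wide. Wide peaks thus shared a narrow maximum here. A site found in M15 replicates 1 and 2 and KTSminus replicate 2, at 126626327-126626404, had max signals of 56, 33 and 102.

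Across the locus M15 replicate 1 peaks met peaks of the other lists less often than in that list as a whole. Of the 82 M15 replicate 1 peaks, 48 overlapped an M15 replicate 2 peak, 21 a KTSminus replicate 1 peak and 28 a KTSminus replicate 2 peak, against 95.5%, 93.6% and 93.9% of that list. No other list had a peak at 23 of the 82, against 1.46% of the list, and all 23 were proximal. Without M15 replicate 2 that number was 45, without either KTSminus list 28 or 29. The shares of the whole list under these changes were not counted. The highest stretch lay within 200 bp of one in M15 replicate 2 for 14 peaks, in KTSminus replicate 1 for 3 and in KTSminus replicate 2 for 7, against 75.1%, 48.4% and 64.7% of the list. Overlap and signal helped to choose the locus, and peaks of 1 locus are not replicates, so these shares carry no test.

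The distal part holds only 5 M15 replicate 1 peaks. All 5 overlapped a peak of each other list, and the highest stretch lay within 200 bp for 4 of them in M15 replicate 2 (80%), 2 in KTSminus replicate 1 (40%) and 3 in KTSminus replicate 2 (60%). The first share was above that of the whole list given above and the other 2 were below it, each resting on 5 peaks. Of the bases that M15 replicate 1 covered there, 95.5% were covered in M15 replicate 2, 91.8% in KTSminus replicate 1 and 79.8% in KTSminus replicate 2. In the proximal part the same shares were 42.2%, 14.1% and 24.1%, and over the genome 75.2%, 82.3% and 71.3%. The limit between the parts and the shared region were chosen on these peaks, so the contrast between the parts describes that choice and supports nothing further.

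**Figure D5:**
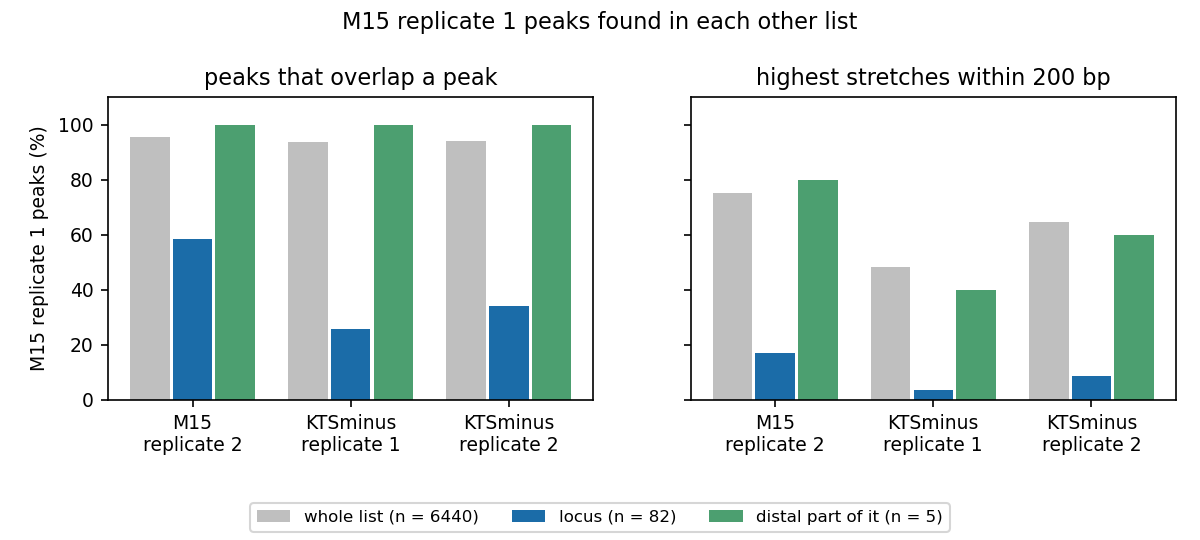
Share of M15 replicate 1 peaks (y axis, percent, from 0) that overlap a peak of each other list (left) or have their highest stretch within 200 bp of one (right), for the whole list of 6440 peaks, the 82 peaks of the locus and its 5 distal peaks. The locus bars are the lowest in every group, at 58.5%, 25.6% and 34.1% on the left and 17.1%, 3.66% and 8.54% on the right.

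KTSminus peaks without an M15 peak lay mostly in the distal part. Of 30 merged regions with a peak of any KTSminus list, 16 had no M15 peak, 15 of them distal, against 91.5% of such regions over the genome. Of 11 merged regions with a peak in both KTSminus lists, 4 had no M15 peak, against 73.7% over the genome: 127071286-127072582, 127083574-127084455, 127091111-127092954 and 127136916-127137909. Their max signals were 10 to 14 in KTSminus replicate 1 and 13 to 27 in KTSminus replicate 2, below the dominant peak near Nab2 in both lists. Peaks that overlapped no other list numbered 8 of 24 in KTSminus replicate 1, against 67.0% of that list, and 4 of 30 in KTSminus replicate 2, against 54.8%, all of them distal. In M15 replicate 2 there were 3 of 33, against 23.2%. These 3 lists thus had smaller shares of such peaks in the locus than as a whole, and M15 replicate 1 a larger one. In total 38 of the 60 merged regions came from 1 list, against 78.3% over the genome. The lists differ in length, and the genome shares differ with it.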

How the data were processed

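Build mm9 and the peak caller SEACR 1.3 are named in the submitters' processing notes, which also list Bowtie2 2.2.6, SAMtools 1.3, bedtools 2.23.0, Picard 2.5.0 and FastQC 0.11.8. Each deposited list belongs to 1 library and holds 6 columns: the position of a peak, its total signal (column 4), its max signal (column 5) and the stretch where the signal is highest. The deposited signal values are coverage in the authors' units. Any scaling, control, threshold or use of spike-in DNA is not given in the sources used here, and the depth is unknown, so signals were only described and ranked inside a list. Positions are counted from 1.

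Peaks sharing at least 1 bp were merged with Python 3.11.15, numpy 2.4.6 and pandas 2.3.3, and figures used matplotlib 3.10.9. The merging code was tested on simulated data. Ranks break ties by the other signal column. Named are the 5 genes and 3 regions that define the locus and, in each list, its 5 peaks with the highest max signal. Other sites were named after their values were seen. The members, lists and limits were chosen with earlier results of these data known. Alternatives were a stricter threshold, other overlaps, list lengths, limits and flanks, and leaving out libraries.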

Additional observations from a re-analysis of the deposited data

How the results depend on the processing

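Under the alternatives 57 of 81 values stayed within limits and 24 moved. Counts could change by up to 1.5 times and shares and ranks by 1 SD between replicates, so a wide spread gave wide limits. With only the stretches of highest signal, the covered share fell to 2.58% in M15 and 0.403% in KTSminus, since these stretches are short. Regions in both M15 lists then numbered 6 and regions in all 4 lists 0, and a 50% reciprocal overlap gave 7 regions in both M15 lists and 2 without a KTSminus peak. By mean height the dominant peak near Nab2 ranked 0.212% from the top in M15 and 0.0149% in KTSminus, and by total signal 0.0487% in KTSminus. Within 50 kb all 4 libraries had a peak near Cdk4 and 2 near Ddit3, and within 10 kb 0 near Ddit3. Leaving out each library gave 17 to 60 regions in both M15 lists, 7 to 11 in all lists, 7 to 45 M15 regions without a KTSminus peak, 28 to 45 M15 replicate 1 peaks in no other list, and 1 to 2 libraries near Cdk4, 0 to 1 near Ddit3 and 1 to 2 near Gli1. Fewer lists to satisfy or to miss raise such counts by construction. The distances of 100 and 500 bp between highest stretches, the other limit of the distal part and the counts of peaks in no other list were added after seeing the data. No paired analysis was possible because the results come from peak lists without a test, and replicate numbers are not said to mark a shared culture.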
